A study of Homo sapiens with 24 samples.

Results

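The genes described here are 30 enzymes, regulators and carriers of cholesterol and fatty acid synthesis, listed by their known roles and split into 4 branches. Members and branches were chosen with earlier results of these data known, so the branches are described and not tested. The sterol branch holds 17 enzymes that turn acetyl groups into cholesterol, the fatty acid branch 6 enzymes that make, lengthen and desaturate fatty acids, precursor supply 3 enzymes that provide their building blocks, and regulators and transport 4 genes. A gene was measured through the row of the core array summary that names it as its only gene, and through the row with the highest mean where there were several. This gave 26 of the 30 genes, among 14232 genes in all: 14 in the sterol branch, 6 in the fatty acid branch, 3 in precursor supply and 3 among regulators and transport. CYP51A1, HSD17B7 and SREBF2 stand on rows that name several genes, and their expression, like that of FDFT1, was not analysed here.

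RNA came from MUTZ-5 and MHH-CALL4, established human cell lines from acute lymphoblastic leukemia of B cell precursors, kept in the same serum-containing medium. Each line was exposed for 8 h to 500 nM JQ1, a BET inhibitor that blocks the binding of these proteins to acetylated histones, or to DMSO, and the question was which genes respond. The 4 groups are MUTZ-5 under JQ1, MUTZ-5 under DMSO, MHH-CALL4 under JQ1 and MHH-CALL4 under DMSO, with 3 samples on 1 Affymetrix exon array each. Values are log2 units of the RMA summary, so a difference of 1 is 2-fold. It is not stated if a group's 3 samples are separate cultures, so the p-values rest on a spread that may be technical. The serum in the medium is itself a source of cholesterol and fatty acids.

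Cells build cholesterol and fatty acids from cytosolic acetyl-CoA. Genes of both pathways are known targets of the SREBP transcription factors, which are held in the endoplasmic reticulum when sterols are plentiful and released to the nucleus when they are scarce. SREBP2 is known mainly for sterol genes and SREBP1 for fatty acid genes, and the NF-Y factor, which binds CCAAT motifs, works beside them at many of these promoters.

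The arrays carried the mark of the treatment that their labels give. HEXIM1, which BET inhibitors are known to raise, was 1.51 log2 higher under JQ1 in MUTZ-5 and 1.76 higher in MHH-CALL4, and MYC was lower by 1.32 and by 2.05 (limma, highest adjusted p of the 4 values 6.3e-08). Of 10 measured precursor B cell markers, 9 lay at or above the median gene (8.52) in every group. Their mean was lower under JQ1, at 11.36 to 11.39 over the arrays against 11.64 to 11.75 under DMSO in MUTZ-5, and at 11.56 to 11.60 against 11.82 to 11.98 in MHH-CALL4. Not all fell: at a limma adjusted p under 0.05, 6 of the 10 were lower and 1 higher in MUTZ-5, beside 13.0% and 9.06% of all genes. In MHH-CALL4 6 were lower and 0 higher, beside 17.5% and 11.0%. T and NK cell, myeloid, erythroid and megakaryocyte, and stromal markers reached the median gene in 1 of 10, 1 to 2 of 8, 2 of 5 and 1 of 8 genes, and the JQ1 and DMSO ranges of each list's mean overlapped in both lines. NKG7 and PDGFRB of these lists were called lower under JQ1 in both lines, and LYZ in MHH-CALL4. Whether changes in cell makeup had a part in the results below was not tested, and in such bulk RNA fewer cells of a type and less RNA per cell cannot be told apart. The arrays farthest from their groups were replicate 3 of MUTZ-5 under DMSO (score 0.55) and replicate 3 of MHH-CALL4 under JQ1 (score -0.47), on an axis with 43.9% of the variation within groups. MUTZ-5 DMSO replicate 3 held the highest of its group's 3 values in 21 of the 26 genes described here, and in 52.2% of all genes.

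Promoter sequences are shown for the genes on which the results turn: ELOVL6, with the largest JQ1 difference of the fatty acid branch, and SCD, whose JQ1 differences in the lines lay farthest apart in that branch; TM7SF2 and DHCR7, sterol genes that moved in opposite directions; and HMGCS1, the sterol gene with the largest difference between lines. Each line gives the 250 bases before the RefSeq gene start in GRCh38.p14, 5′ to 3′ on the strand of the gene, with CCAAT or its complement ATTGG in capitals. DHCR7 and HMGCS1 each have 2 promoter windows in RefSeq, of which the first listed is shown. The windows are chr4:110198616-110198865 on the minus strand for ELOVL6, chr10:100346983-100347232 on the plus strand for SCD, chr11:65111622-65111871 on the plus strand for TM7SF2, chr11:71448394-71448643 on the minus strand for DHCR7 and chr5:43313413-43313662 on the minus strand for HMGCS1.
ELOVL6: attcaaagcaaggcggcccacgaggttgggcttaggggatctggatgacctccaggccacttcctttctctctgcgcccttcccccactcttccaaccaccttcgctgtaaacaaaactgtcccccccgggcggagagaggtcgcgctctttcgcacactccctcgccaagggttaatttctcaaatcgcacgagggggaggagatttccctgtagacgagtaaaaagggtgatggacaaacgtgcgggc
SCD: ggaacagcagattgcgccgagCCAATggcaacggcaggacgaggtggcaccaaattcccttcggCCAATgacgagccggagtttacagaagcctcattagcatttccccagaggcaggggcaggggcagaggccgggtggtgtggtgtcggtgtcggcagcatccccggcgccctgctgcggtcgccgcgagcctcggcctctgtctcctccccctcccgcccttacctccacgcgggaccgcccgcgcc
TM7SF2: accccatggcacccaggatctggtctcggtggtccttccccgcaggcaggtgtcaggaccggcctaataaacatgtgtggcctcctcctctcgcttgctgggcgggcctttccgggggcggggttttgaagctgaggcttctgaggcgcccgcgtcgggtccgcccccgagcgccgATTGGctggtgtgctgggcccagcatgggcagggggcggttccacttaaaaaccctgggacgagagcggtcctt
DHCR7: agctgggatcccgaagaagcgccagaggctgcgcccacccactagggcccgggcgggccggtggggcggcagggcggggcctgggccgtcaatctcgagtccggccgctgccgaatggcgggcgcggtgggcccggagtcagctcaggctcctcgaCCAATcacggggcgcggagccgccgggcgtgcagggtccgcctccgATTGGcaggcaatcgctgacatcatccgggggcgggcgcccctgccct
HMGCS1: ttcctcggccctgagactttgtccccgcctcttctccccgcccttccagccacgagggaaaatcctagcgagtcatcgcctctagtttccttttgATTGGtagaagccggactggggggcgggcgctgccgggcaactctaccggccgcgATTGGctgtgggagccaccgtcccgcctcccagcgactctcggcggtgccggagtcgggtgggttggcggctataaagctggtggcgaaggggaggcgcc

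ELOVL6 has no CCAAT in its window, TM7SF2 has 1 that starts 74 bases before the gene start, and SCD, DHCR7 and HMGCS1 have 2 each. Those of DHCR7 start 94 and 48 bases before the gene start, those of HMGCS1 155 and 100, and those of SCD 229 and 186. A promoter window of 250 bases before to 50 after the start was found for 27 of the 30 genes, CYP51A1, HSD17B7 and SREBF2 among them. SQLE, FASN and FDFT1 had no window, so the motif counts leave them out. On either strand CCAAT occurred in 13 of 15 sterol genes and in 3 of 5 fatty acid genes, against 39.7% of 27305 genes in the RefSeq table, with a mean of 2.33 matches per sterol gene, 1.0 per fatty acid gene and 0.584 per gene overall. The Sp1-type GC box GGGCGG occurred in 26 of 27 genes against 48.3% of all, the E-box CACGTG in 3 of 27 against 8.77%, and the strict sterol element TCACNCCAC in 1 of 27, SREBF2, against 1.39%. Both strands were searched, the window with most matches was taken for each gene, and no motif lies inside another, though TCACNCCAC and CACGTG can share their CAC. A match is a run of letters and not a measured binding site. FADS1 and FADS2 lie head to head on chromosome 11, on opposite strands, with RefSeq starts 599 or 800 bases apart.

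The fatty acid branch fell under JQ1 in both lines, and the sterol branch was split. All 6 fatty acid enzymes were lower under JQ1 in MUTZ-5 and in MHH-CALL4, with median differences of -0.60 and -0.73 log2. With ACLY, ACSS2 and AACS of precursor supply counted in, 7 of 9 were lower and 2 higher in each line. The 14 sterol enzymes had medians of -0.012 in MUTZ-5, with 1 higher, 2 lower and 11 not past the test, and of -0.064 in MHH-CALL4, with 3 higher, 4 lower and 7 not past it. The medians of all genes were 0.0084 and 0.0065. Of the 26 genes, 3 were higher and 9 lower in MUTZ-5, where 9.06% of all genes were called higher and 13.0% lower (22.0% in all). In MHH-CALL4, 5 were higher and 11 lower, where 11.0% of all genes were called higher and 17.5% lower (28.5% in all). In MUTZ-5 the JQ1 arrays lay wholly above the DMSO arrays in 5 genes and wholly below in 11, beside 13.8% and 18.7% of all genes, and 17 genes had an unadjusted p under 0.05, beside 31.0%. In MHH-CALL4 they lay above in 5 and below in 13, beside 19.7% and 24.1%, and 18 genes had an unadjusted p under 0.05, beside 38.8%. A call is an adjusted p under 0.05 in limma, with Benjamini-Hochberg adjustment over all 14232 genes. After median centring of the arrays, 5 were higher and 9 lower in MUTZ-5, with 1761 higher and 1656 lower calls over all genes against 1290 and 1848 as deposited, and over all genes of MHH-CALL4 2162 higher and 2293 lower against 1563 and 2494. The median of the sterol branch in MUTZ-5 was then 0.03.

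**Figure D1:**
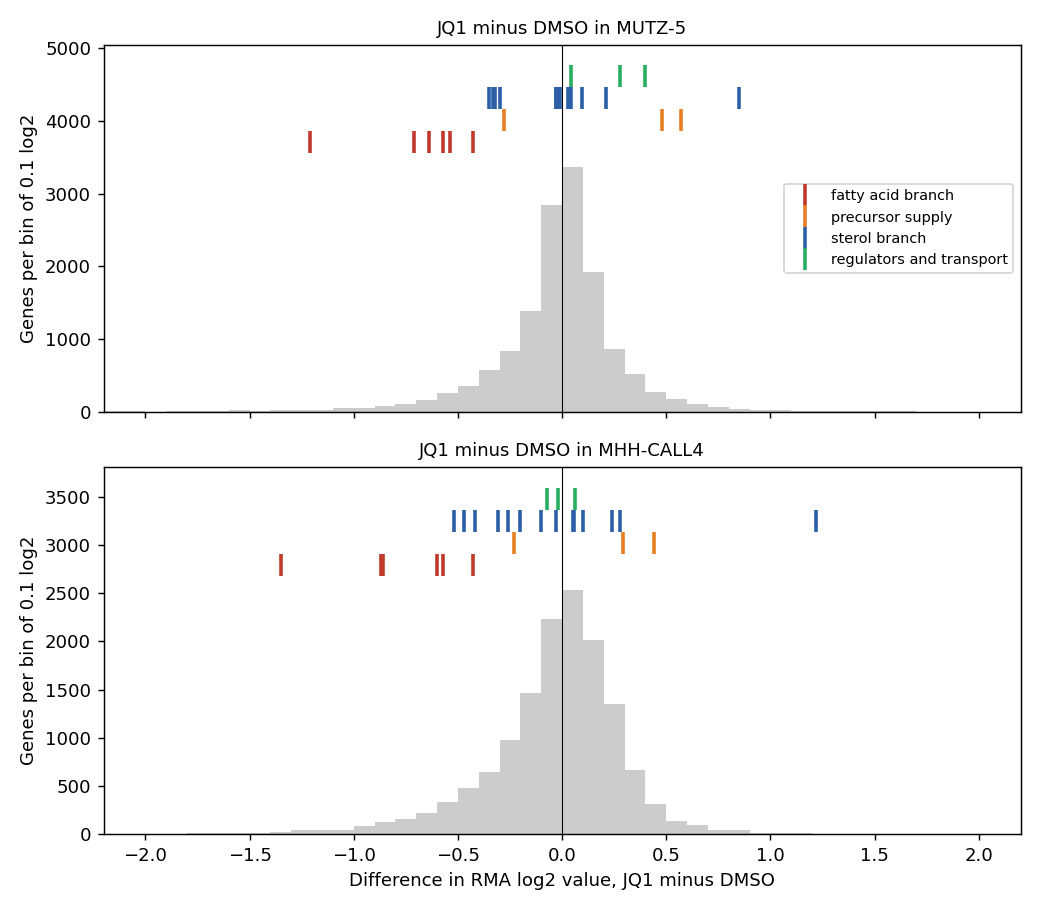
The differences JQ1 minus DMSO of the 4 branches (coloured ticks, placed above the bars) are set over the number of all 14232 genes per bin of 0.1 log2 (grey bars) in MUTZ-5 (top) and MHH-CALL4 (bottom); genes past the axis ends are not drawn. All 6 fatty acid ticks lie left of zero, between -1.21 and -0.43 in MUTZ-5 and between -1.35 and -0.43 in MHH-CALL4, while the sterol ticks lie on both sides.

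ELOVL6, which lengthens palmitate to stearate, had the largest fall of the 26 genes in both lines. Its values in MUTZ-5 were 6.49, 6.65 and 6.66 under JQ1, against 7.54, 7.61 and 8.29 under DMSO. In MHH-CALL4 they were 6.75, 6.80 and 6.44 under JQ1, against 8.10, 7.96 and 7.98 under DMSO. The groups did not overlap in either line, and the highest value of all was that of MUTZ-5 DMSO replicate 3. The falls were 2.32-fold in MUTZ-5 (-1.21 log2, SE 0.16, adjusted p = 0.00011) and 2.55-fold in MHH-CALL4 (-1.35, SE 0.16, adjusted p = 3.5e-05), and ranked 91 and 88 among the falls of all genes. With extended summaries, which add less well annotated exons, they were -0.70 and -0.94.

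The enzymes that make palmitate fell together. ACACA, acetyl-CoA carboxylase, which commits acetyl-CoA to fatty acids, had 9.29, 9.33 and 9.22 under JQ1 in MUTZ-5, against 9.93, 9.86 and 10.19 under DMSO. In MHH-CALL4 it had 8.82, 8.90 and 8.72 under JQ1, against 9.64, 9.75 and 9.65 under DMSO. FASN, the synthase that assembles palmitate, had 9.65, 9.71 and 9.79 under JQ1 in MUTZ-5, against 10.38, 10.23 and 10.44 under DMSO. Every JQ1 value of both genes lay below every DMSO value of its line. FASN in MHH-CALL4 had 9.30, 9.45 and 9.46 under JQ1, against 9.97, 10.05 and 10.01 under DMSO, again without overlap. ACACA fell 1.64-fold in MUTZ-5 (SE 0.089, adjusted p = 6.5e-05) and 1.82-fold in MHH-CALL4 (SE 0.089, adjusted p = 8.9e-06), and FASN 1.56-fold (SE 0.079, adjusted p = 6.2e-05) and 1.52-fold (SE 0.079, adjusted p = 7.2e-05).

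The desaturases fell as well. SCD, which puts a double bond into stearate and palmitate, had 8.79, 8.58 and 8.63 under JQ1 in MUTZ-5, against 9.03, 9.0 and 9.25 under DMSO. In MHH-CALL4 it had 8.02, 7.84 and 7.87 under JQ1, against 8.80, 9.0 and 8.53 under DMSO. The groups of SCD did not overlap, with a gap between JQ1 and DMSO that was narrower in MUTZ-5. It fell 1.34-fold in MUTZ-5 (-0.43 log2, SE 0.12, adjusted p = 0.016) and 1.82-fold in MHH-CALL4 (-0.86, SE 0.12, adjusted p = 8.6e-05). The MUTZ-5 call of SCD was lost without MUTZ-5 DMSO replicate 3 (-0.35, adjusted p = 0.0605) and without MUTZ-5 JQ1 replicate 2 (-0.38, adjusted p = 0.0728). FADS1 and FADS2, the front-end desaturases of polyunsaturated fatty acids, averaged 10.69 ± 0.058 and 10.41 ± 0.064 under JQ1 in MUTZ-5, against 11.26 ± 0.10 and 10.95 ± 0.082 under DMSO (SD, n = 3). In MHH-CALL4 they averaged 10.77 ± 0.068 and 11.00 ± 0.043 under JQ1, against 11.34 ± 0.093 and 11.43 ± 0.078 under DMSO. No JQ1 value of either gene reached a DMSO value of its line. FADS1 fell 1.48-fold in each line (adjusted p = 0.00015 in MUTZ-5 and 0.00012 in MHH-CALL4), and FADS2 1.46-fold in MUTZ-5 (adjusted p = 0.00012) and 1.35-fold in MHH-CALL4 (adjusted p = 0.00057).

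**Figure D2:**
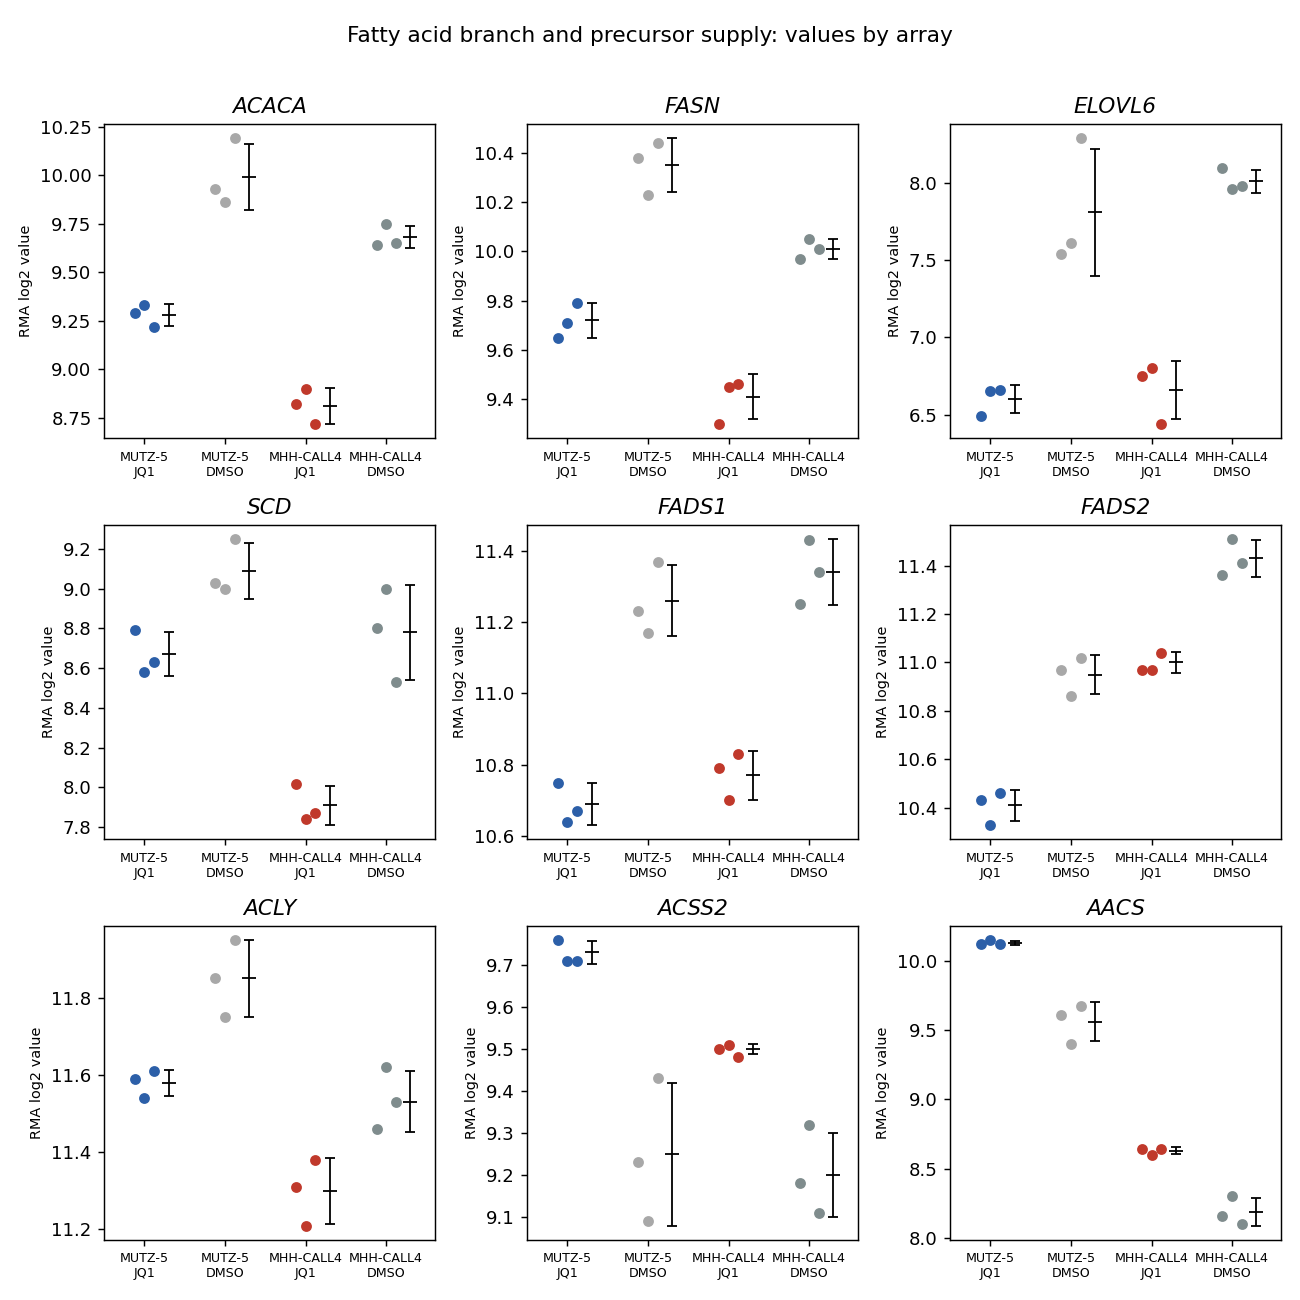
Each panel gives the RMA log2 value of 1 gene of the fatty acid branch or precursor supply in the 12 arrays (points, replicates 1 to 3 from left to right) with the mean and SD of each group (n = 3); vertical axes differ between panels and do not start at 0. In the 6 enzymes of the fatty acid branch and in ACLY the JQ1 points lie below the DMSO points of their line, and in ACSS2 and AACS above them.

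The 3 precursor genes moved in both directions, in the same way in both lines. AACS, which turns acetoacetate into its CoA ester for lipid synthesis, had 10.12, 10.15 and 10.12 under JQ1 in MUTZ-5, against 9.61, 9.40 and 9.67 under DMSO. In MHH-CALL4 it had 8.64, 8.60 and 8.64 under JQ1, against 8.16, 8.30 and 8.10 under DMSO. The JQ1 values lay close together and above all DMSO values of their line, and AACS rose 1.48-fold in MUTZ-5 (SE 0.081, adjusted p = 2e-04) and 1.36-fold in MHH-CALL4 (SE 0.081, adjusted p = 0.0012). ACSS2, which makes acetyl-CoA from acetate, had 9.76, 9.71 and 9.71 under JQ1 in MUTZ-5, against 9.23, 9.09 and 9.43 under DMSO, a 1.39-fold rise (adjusted p = 0.0013). In MHH-CALL4 it had 9.50, 9.51 and 9.48 under JQ1, against 9.18, 9.32 and 9.11 under DMSO, a 1.23-fold rise (adjusted p = 0.022). The groups of ACSS2 did not overlap, and its MHH-CALL4 call was lost when MHH-CALL4 DMSO replicate 1 or 3 or JQ1 replicate 1 or 2 was left out (adjusted p of 0.0632, 0.0903, 0.0514 and 0.0644). ACLY, which makes acetyl-CoA from citrate and is the main route to cytosolic acetyl-CoA in most cells, averaged 11.58 ± 0.034 under JQ1 in MUTZ-5, against 11.85 ± 0.10 under DMSO, and 11.30 ± 0.085 under JQ1 in MHH-CALL4, against 11.53 ± 0.079 under DMSO. It fell 1.21-fold (adjusted p = 0.019) and 1.18-fold (adjusted p = 0.037), calls that 5 of 14 alternatives in MUTZ-5 and 7 of 14 in MHH-CALL4 did not keep.

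TM7SF2 had the largest rise of the 26 genes in both lines. It encodes a reductase of the post-lanosterol steps, and its values in MUTZ-5 were 10.53, 10.48 and 10.56 under JQ1, against 9.76, 9.51 and 9.75 under DMSO. In MHH-CALL4 they were 10.09, 10.22 and 10.31 under JQ1, against 8.89, 9.09 and 9.0 under DMSO. The groups lay far apart in both lines. TM7SF2 rose 1.80-fold in MUTZ-5 (0.85 log2, SE 0.088, adjusted p = 1.4e-05) and 2.32-fold in MHH-CALL4 (1.22, SE 0.088, adjusted p = 4e-07), which ranked 89 and 26 among the rises of all genes. With extended summaries the rises were 0.63 and 0.74 log2.

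DHCR7, which catalyses the last reduction to cholesterol, fell in both lines. Its values in MUTZ-5 were 10.65, 10.55 and 10.67 under JQ1, against 10.96, 10.83 and 11.07 under DMSO. In MHH-CALL4 they were 9.53, 9.52 and 9.56 under JQ1, against 10.03, 10.08 and 10.05 under DMSO. The JQ1 arrays were below the DMSO arrays without overlap, by 1.26-fold in MUTZ-5 (SE 0.074, adjusted p = 0.005) and 1.43-fold in MHH-CALL4 (SE 0.074, adjusted p = 0.00015). NSDHL, a dehydrogenase that helps remove methyl groups from the sterol ring, had 10.09, 10.14 and 10.13 under JQ1 in MUTZ-5, against 10.37, 10.39 and 10.51 under DMSO, and fell 1.23-fold (adjusted p = 0.0093). In MHH-CALL4 it had 9.81, 9.80 and 9.67 under JQ1, against 9.90, 10.06 and 9.92 under DMSO, a difference of -0.20 that did not pass (adjusted p = 0.062). The groups of NSDHL did not overlap in either line.

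IDI1 and SQLE were lower under JQ1 in MHH-CALL4 and close to their DMSO level in MUTZ-5. IDI1, which interconverts the isoprene units, had 10.52, 10.47 and 10.46 under JQ1 in MHH-CALL4, against 10.76, 11.06 and 10.89 under DMSO, and fell by 0.42 log2 (SE 0.081, adjusted p = 0.0016). In MUTZ-5 it had 11.10, 11.03 and 11.01 under JQ1, against 11.03, 11.13 and 11.02 under DMSO, a difference of -0.015 (95% interval -0.19 to 0.16, adjusted p = 0.94). Only the MHH-CALL4 groups of IDI1 stand clear of each other. SQLE, squalene epoxidase, a slow step of the pathway, had 9.64, 9.56 and 9.29 under JQ1 in MHH-CALL4, against 10.07, 9.93 and 9.91 under DMSO, and fell by 0.47 log2 (SE 0.11, adjusted p = 0.0062). In MUTZ-5 it had 10.70, 10.62 and 10.41 under JQ1, against 10.53, 10.40 and 10.71 under DMSO, a difference of 0.029 (95% interval -0.21 to 0.27, adjusted p = 0.92). Its MUTZ-5 groups overlapped, and with extended summaries the MHH-CALL4 fall of IDI1 was -0.26.

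Of the other sterol enzymes, LSS, SC5D and EBP were called in MHH-CALL4 and none was called in MUTZ-5. LSS, which closes the sterol ring system, rose in MHH-CALL4 (0.24 log2, adjusted p = 0.032) and was 0.21 in MUTZ-5 (adjusted p = 0.072), with JQ1 above DMSO on all arrays of each line. SC5D, a desaturase of the late steps, rose in MHH-CALL4 (0.28, adjusted p = 0.017) and was 0.045 in MUTZ-5 (adjusted p = 0.80). EBP, the sterol isomerase that precedes it, fell in MHH-CALL4 (-0.26, adjusted p = 0.037) and was -0.028 in MUTZ-5 (adjusted p = 0.90). LSS, SC5D and EBP lost these MHH-CALL4 calls in 6, 4 and 8 of 14 alternatives, and without MHH-CALL4 JQ1 replicate 3 the branch had 1 gene higher and 4 lower. HMGCS1, the synthase at the entry of the mevalonate route, had 10.77, 10.78 and 10.53 under JQ1 in MUTZ-5, against 10.89, 10.93 and 11.21 under DMSO, a difference of -0.32 that did not pass (adjusted p = 0.066), and -0.03 in MHH-CALL4 (adjusted p = 0.88). MSMO1, a methyl sterol oxidase, differed by -0.35 in MUTZ-5 (adjusted p = 0.054) and -0.31 in MHH-CALL4 (adjusted p = 0.072). The MUTZ-5 groups of HMGCS1 and MSMO1 did not overlap. MSMO1 was called lower in 6 of 14 alternatives in MUTZ-5 and 3 of 14 in MHH-CALL4, and HMGCS1 in 3 of 14 in MUTZ-5. MVK, PMVK, MVD and FDPS, which carry mevalonate to farnesyl diphosphate, differed by -0.10 to 0.10 log2 in both lines, with overlapping groups and a lowest adjusted p of 0.44.

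**Figure D3:**
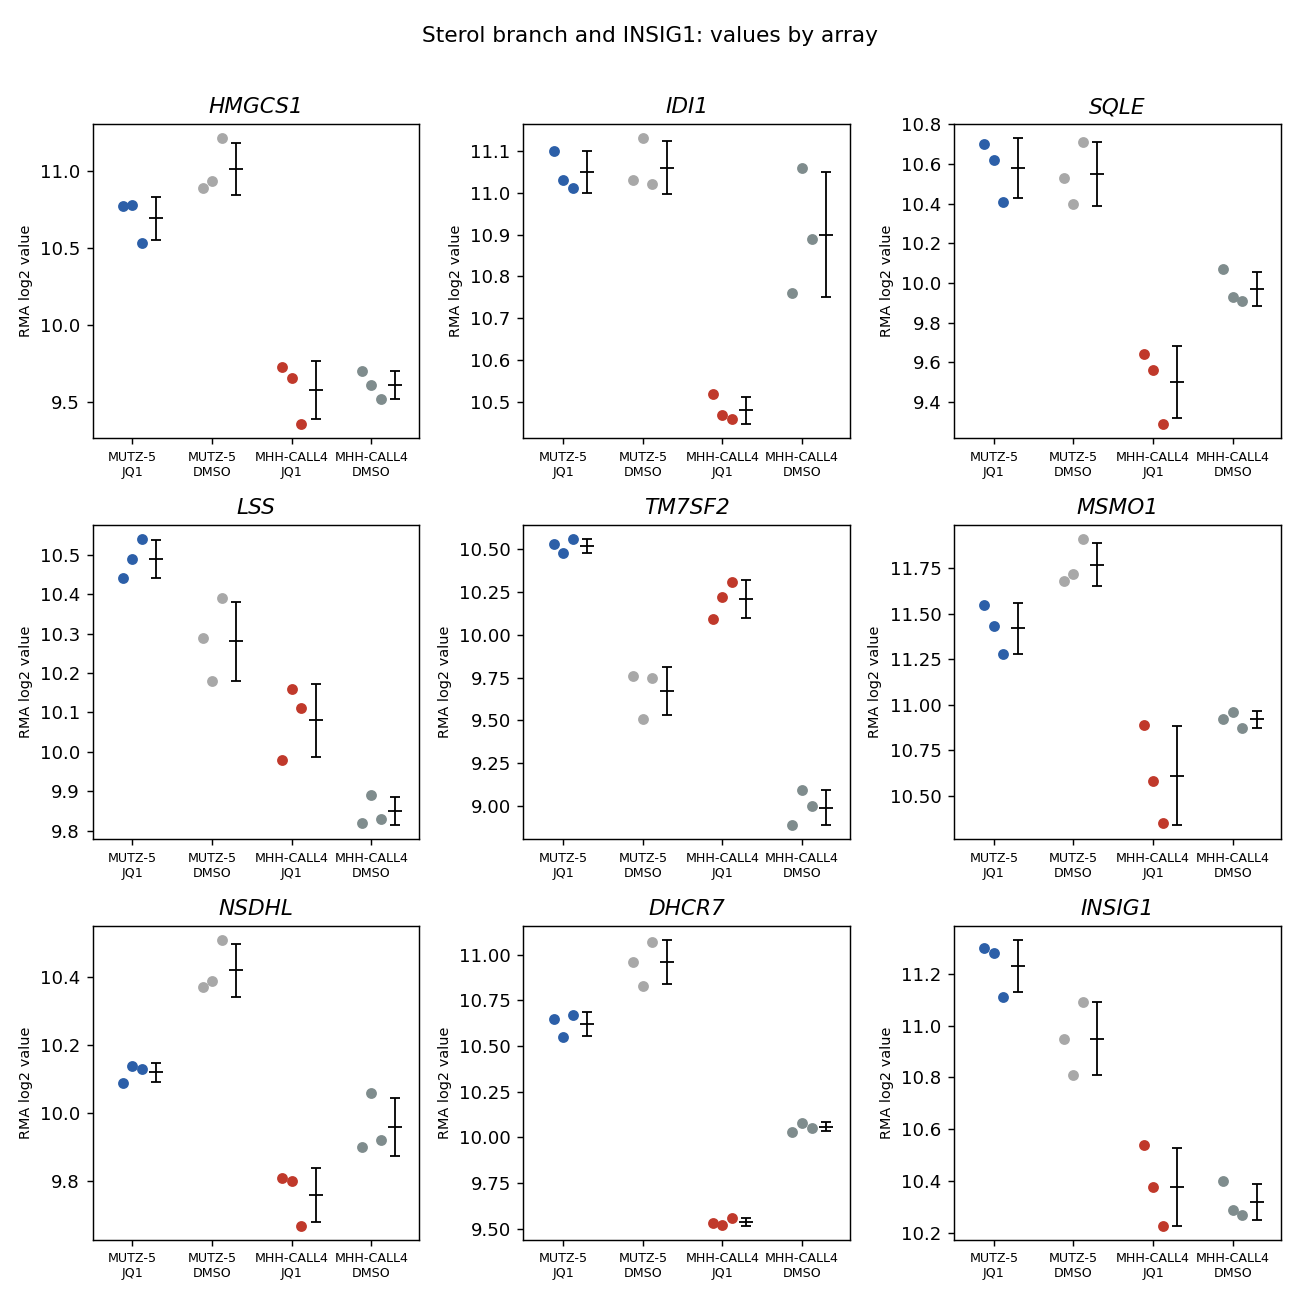
Each panel gives the RMA log2 value of 1 of 8 sterol enzymes or of INSIG1 in the 12 arrays (points, replicates 1 to 3 from left to right) with the mean and SD of each group (n = 3); vertical axes differ between panels and do not start at 0. TM7SF2 lies higher and DHCR7 lower under JQ1 in both lines, the JQ1 points of IDI1 and SQLE lie below DMSO in MHH-CALL4 and among the DMSO points in MUTZ-5, and in HMGCS1 all MUTZ-5 points lie above all MHH-CALL4 points.

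Of the regulators and carriers none was called in either line by limma, and 2 of 3 reached an unadjusted p under 0.05 in MUTZ-5 and 0 in MHH-CALL4, beside 31.0% and 38.8% of all genes. SREBF1, which encodes SREBP1, had 9.63, 9.58 and 9.71 under JQ1 in MUTZ-5, against 9.62, 9.58 and 9.59 under DMSO, a difference of 0.043 (95% interval -0.09 to 0.18). In MHH-CALL4 it had 9.54, 9.55 and 9.59 under JQ1, against 9.65, 9.63 and 9.61 under DMSO, a difference of -0.073 (95% interval -0.21 to 0.06). Whether SREBP1 had a part in the falls of the fatty acid enzymes was not tested. INSIG1, the retention protein that is itself an SREBP target, had 11.30, 11.28 and 11.11 under JQ1 in MUTZ-5, against 10.95, 10.81 and 11.09 under DMSO, a difference of 0.28 (adjusted p = 0.056), and 0.064 in MHH-CALL4 (adjusted p = 0.67). STARD4, a cytosolic sterol carrier, had 9.96, 9.87 and 9.67 under JQ1 in MUTZ-5, against 9.33, 9.19 and 9.78 under DMSO, a difference of 0.40 (adjusted p = 0.084), and -0.018 in MHH-CALL4 (adjusted p = 0.95). The MUTZ-5 groups of INSIG1 did not overlap, while those of STARD4 did. In MUTZ-5, INSIG1, STARD4 and LSS were called higher in 7, 3 and 5 of 14 alternatives. One of these left out MUTZ-5 DMSO replicate 3 and called INSIG1 (0.35, adjusted p = 0.0232), STARD4 (0.58, adjusted p = 0.0083) and LSS (0.26, adjusted p = 0.0294). Without that array SCD and ACLY (-0.23, adjusted p = 0.0572) lost their calls, so that 6 of the 26 genes were higher and 7 lower. Over all genes of MUTZ-5, leaving out 1 array gave 900 to 1673 higher and 1382 to 1930 lower, against 1290 and 1848.

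**Figure D4:**
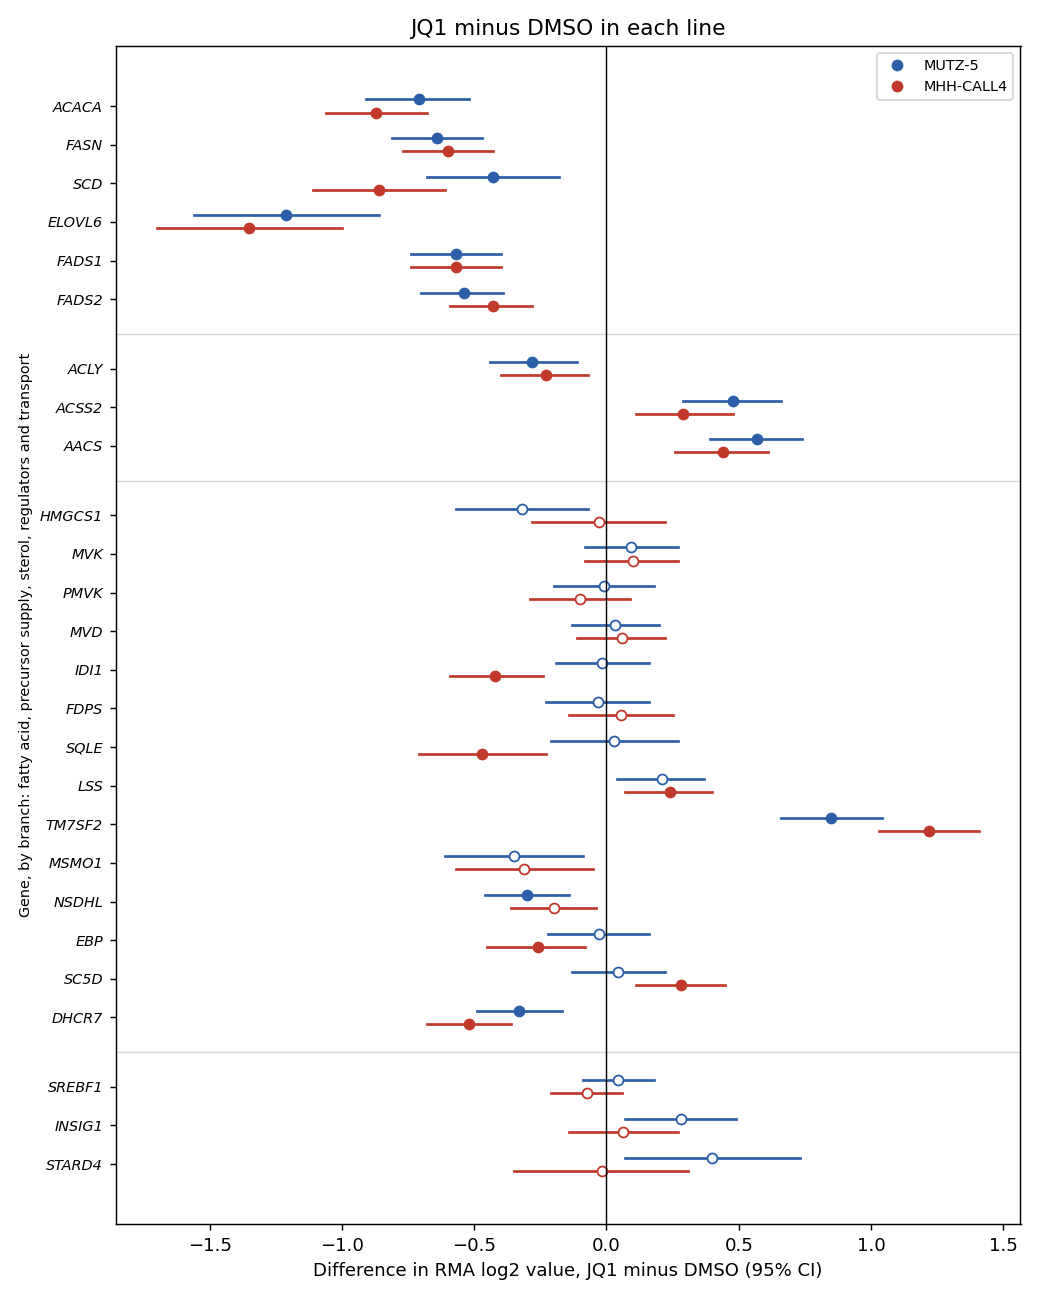
For each measured gene the difference JQ1 minus DMSO in RMA log2 value is shown with its 95% interval, in MUTZ-5 (blue) above MHH-CALL4 (red); filled points passed the limma test and open points did not. The 6 fatty acid enzymes at the top are filled and negative in both lines, and TM7SF2 is the only gene past 1 log2 upward, at 1.22 in MHH-CALL4.

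The test of the difference between the lines, the JQ1 effect in MUTZ-5 minus that in MHH-CALL4, called 0 of the 26 genes, against 1.53% of all genes (limma). At an unadjusted p under 0.05 there were 4, against 10.5% of all genes: IDI1 (0.40 log2, 95% interval 0.16 to 0.65, adjusted p = 0.13), SQLE (0.50, 0.16 to 0.84, adjusted p = 0.18), SCD (0.44, 0.08 to 0.79, adjusted p = 0.32) and TM7SF2 (-0.37, -0.63 to -0.10, adjusted p = 0.24). For these genes the JQ1 effect in MHH-CALL4 was farther from 0 in these arrays. With extended summaries the differences of IDI1, SQLE, SCD and TM7SF2 were 0.23, 0.37, 0.33 and -0.1 (limma, adjusted p = 0.592, 0.397, 0.501 and 0.896). The intervals of the fatty acid enzymes other than SCD ran from -0.36 to 0.63 at their widest, in ELOVL6, and from -0.24 to 0.24 in FADS1. This difference shares its arrays with each of the 2 JQ1 comparisons.

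Sterol genes stood higher in MUTZ-5 than in MHH-CALL4 whether or not JQ1 was present. Under JQ1 18 of the 26 genes were higher in MUTZ-5, 1 was lower and 7 did not pass, where 11.7% of all genes were called higher and 8.25% lower (19.9% in all). Under DMSO 17 were higher, 1 lower and 8 did not pass, where 11.9% of all genes were called higher and 11.5% lower (23.4% in all). Under JQ1 the MUTZ-5 arrays lay wholly above those of MHH-CALL4 in 21 genes and below in 1, beside 19.3% and 13.8% of all genes, and 21 genes had an unadjusted p under 0.05, beside 27.7%. Under DMSO they lay above in 18 and below in 1, beside 20.0% and 16.1%, and 20 genes had an unadjusted p under 0.05, beside 33.9%. In the sterol branch 11 of 14 genes were higher under JQ1 and 11 of 14 under DMSO, all 14 differences were positive under either treatment, and the medians were 0.40 and 0.43 log2, beside 0.024 and 0.028 over all genes. In the fatty acid branch 3 were higher and 1 lower under JQ1, and 2 higher and 1 lower under DMSO, with medians of 0.12 and 0.11. The comparisons under JQ1 and DMSO use different arrays, but each shares its arrays with the JQ1 effects above.

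HMGCS1 and AACS differed most between the lines. The HMGCS1 values of MUTZ-5 given above, 10.53 to 10.78 under JQ1, stood against 9.73, 9.66 and 9.36 under JQ1 in MHH-CALL4. Under DMSO its MUTZ-5 values of 10.89 to 11.21 stood against 9.70, 9.61 and 9.52 in MHH-CALL4. The lines did not overlap, and HMGCS1 was 2.16-fold higher in MUTZ-5 under JQ1 (SE 0.11, adjusted p = 6.6e-06) and 2.64-fold under DMSO (SE 0.11, adjusted p = 6.1e-07). AACS was 2.83-fold higher under JQ1 (SE 0.081, adjusted p = 8.9e-09) and 2.59-fold under DMSO (SE 0.081, adjusted p = 2e-08). DHCR7 was higher by 1.09 log2 under JQ1 and 0.90 under DMSO, and MSMO1 by 0.81 and 0.85.

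Other genes differed between the lines by unequal amounts under JQ1 and DMSO. SQLE was 1.08 log2 higher in MUTZ-5 under JQ1 and 0.58 under DMSO, STARD4 1.04 and 0.62, and INSIG1 0.85 and 0.63. IDI1 was called under JQ1 (0.56, adjusted p = 0.00014) and not under DMSO (0.16, adjusted p = 0.19), and SCD likewise (0.75, adjusted p = 0.00026, and 0.32, adjusted p = 0.066). TM7SF2 ran the other way, at 0.32 under JQ1 and 0.68 under DMSO, where extended summaries gave 0.35. None of these inequalities passed the test of the difference given above. FADS2 was lower in MUTZ-5, at 10.43, 10.33 and 10.46 under JQ1 against 10.97, 10.97 and 11.04 in MHH-CALL4, and at 10.97, 10.86 and 11.02 under DMSO against 11.36, 11.51 and 11.41 in MHH-CALL4. The lines did not overlap (-0.59, adjusted p = 3.8e-05 under JQ1, and -0.48, adjusted p = 0.00023 under DMSO), whereas its neighbour FADS1 differed by -0.086 and -0.084 without a call. ACSS2 was 0.23 higher under JQ1 and did not pass (adjusted p = 0.087). In fits of the 6 JQ1 arrays alone it passed with the replicate number as a block (adjusted p = 0.0271) and without it (adjusted p = 0.03), and with the block over all arrays it did not (adjusted p = 0.145). Without MUTZ-5 DMSO replicate 3, ELOVL6 was called lower in MUTZ-5 under DMSO (-0.44, adjusted p = 0.00863) and ACACA, 0.31 higher with all arrays (adjusted p = 0.021), lost its call (0.22, adjusted p = 0.0587).

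**Figure D5:**
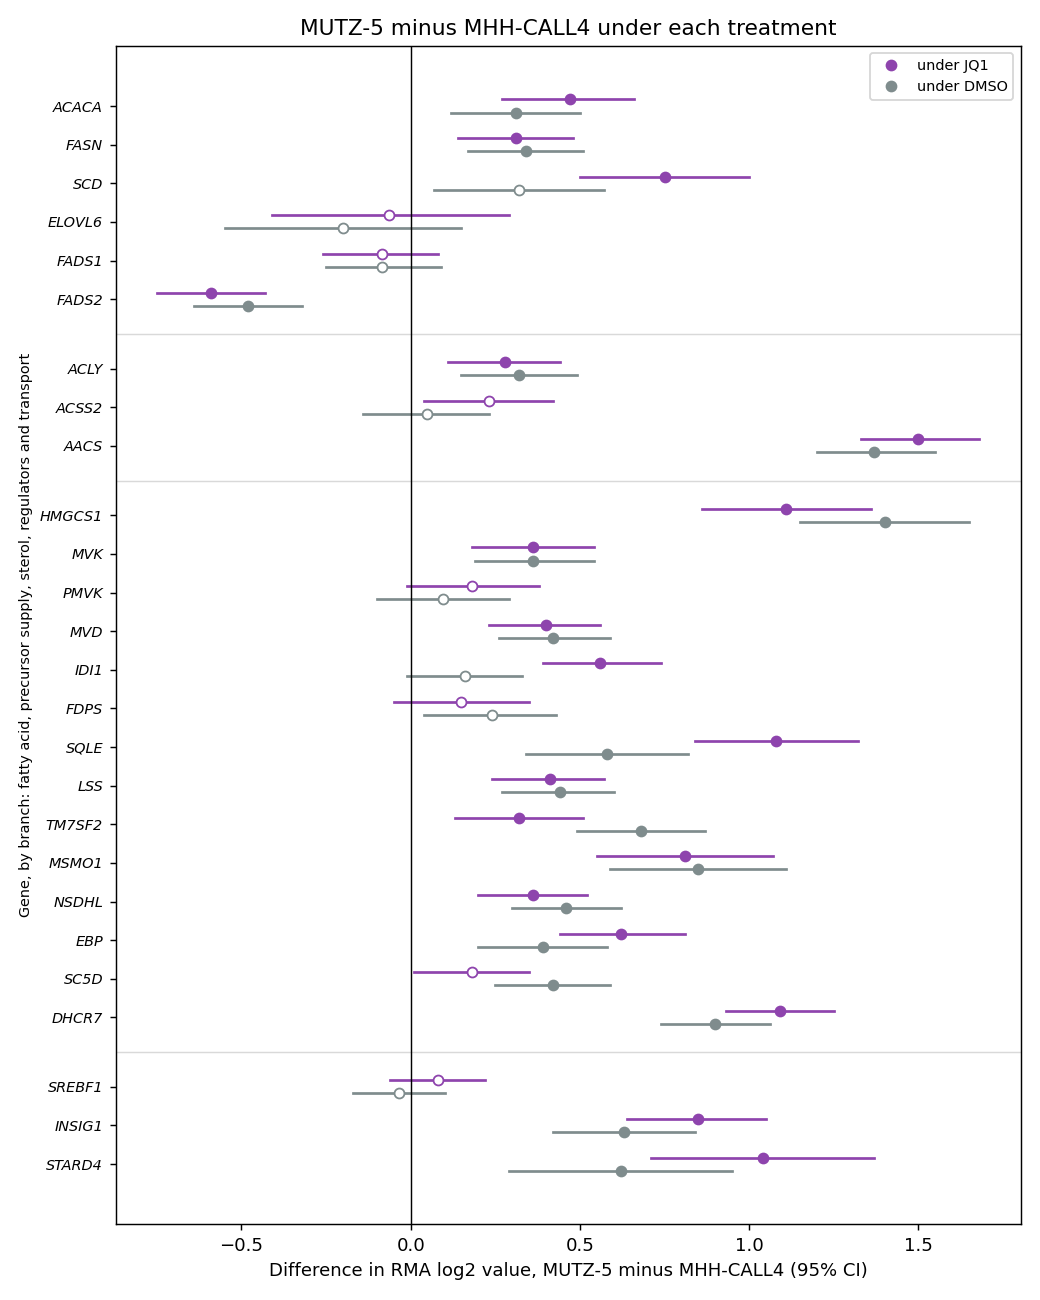
For each measured gene the difference MUTZ-5 minus MHH-CALL4 in RMA log2 value is shown with its 95% interval, under JQ1 (purple) above DMSO (grey); filled points passed the limma test and open points did not. All 14 sterol genes lie right of zero under both treatments, HMGCS1 at 1.11 and 1.40, and FADS2 is the only filled gene on the left.

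Related genes of lipid metabolism moved in both directions. The counts of 4 related lists stand beside the shares over all genes, which were 9.06% higher and 13.0% lower in MUTZ-5, and 11.0% higher and 17.5% lower in MHH-CALL4. Of 10 measured further synthesis enzymes, 3 were higher and 1 lower under JQ1 in MUTZ-5, and 2 higher and 2 lower in MHH-CALL4. ACSL1, which activates fatty acids to their CoA esters, rose by 0.69 in MUTZ-5 and 1.30 in MHH-CALL4, and ACACB, the carboxylase known for restraining fatty acid oxidation, by 0.55 and 0.29. MID1IP1, a protein that polymerises acetyl-CoA carboxylase, fell by 0.26 and 0.47. SCD5, another stearoyl-CoA desaturase, rose in MUTZ-5 (0.29), and ACSL4, which activates arachidonate, fell in MHH-CALL4 (-0.36). ACACA and SCD thus fell while their paralogues ACACB (both lines) and SCD5 (MUTZ-5) rose.

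In the list for SREBP processing and degradation, 1 of 7 measured genes was higher and 1 lower in MUTZ-5, and 0 were higher and 2 lower in MHH-CALL4, near the shares over all genes (9.06% and 13.0% in MUTZ-5, 11.0% and 17.5% in MHH-CALL4). ERLIN1, which helps degrade sterol-regulated membrane proteins, fell by 0.45 in MUTZ-5 and 0.83 in MHH-CALL4. INSIG2 rose in MUTZ-5 (0.36, with overlapping groups), the protease gene MBTPS1, which cleaves SREBPs, fell in MHH-CALL4 (-0.26), and SCAP, their escort protein, differed by -0.069 and 0.0095 without a call. Of 7 measured uptake genes and other SREBP targets, 1 was higher and 2 lower in MUTZ-5, and 0 were higher and 2 lower in MHH-CALL4, beside the same shares. The lipoprotein receptor SCARB1 fell by 0.56 and 0.67 and the endoplasmic reticulum protein TMEM97 by 0.39 and 0.62, while NPC1, which exports cholesterol from lysosomes, rose in MUTZ-5 (0.46). Of 8 measured genes of the LXR pathway, sterol export and storage, 1 was higher and 0 lower in MUTZ-5, and 3 were higher and 1 lower in MHH-CALL4, beside the same shares over all genes. LPCAT3, a phospholipid acyltransferase, rose by 0.46 and 0.42, and MYLIP (0.39), which targets lipoprotein receptors for degradation, rose in MHH-CALL4, where OSBPL1A fell (-0.43). The medians of the 4 lists lay between -0.069 and 0.12 in MUTZ-5 and between -0.062 and 0.22 in MHH-CALL4.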

How the data were processed

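RNA of 12 samples was measured on Affymetrix exon arrays. Per the submitters' processing notes and design text, the authors made the deposited log2 values with RMA in Affymetrix Expression Console, at the core and the extended gene level, giving 24 deposited columns for 12 arrays. The 2 forms of an array count as 1 sample. The software version, genome build and the arrays normalized together are not given in the sources used here. RMA brings arrays to a common distribution, so a shift of all genes cannot be seen. No detection calls were given, and signal over background is not known. Of 22011 core rows, 14432 name 1 gene, 2408 several and 5171 have no gene in the annotation used. Of the 197 genes with several rows, the row with the highest mean was used, leaving 14232 genes. No filter was applied. Array medians were 8.46 to 8.57.

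Group means were fitted across the 12 core summaries (limma 3.58.1, R 4.3.3, lmFit and eBayes), with two-sided tests and Benjamini-Hochberg adjustment over all genes, and the fit was tested on simulated data. Intervals are 95% without adjustment. Members and lists were chosen with earlier results of these data known. The genes named are the 30 members, HEXIM1 and MYC, and of each related list the 3 called genes with the largest JQ1 difference in each line, or fewer where fewer were called, plus SCAP. The rule also lists 2 genes of the related lists that were not analysed here. NKG7, PDGFRB and LYZ were named after their values were seen, as called markers of other cell types. Promoter windows are from RefSeq. Alternatives were extended summaries, median centring, cyclic loess, a filter on low values, the mean of all rows, the arrays of 2 groups only, a trended robust fit, a replicate block, precursor supply counted with the fatty acid branch, and leaving out each array.

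Residuals of same-numbered arrays correlated at 0.20 to 0.47 between MUTZ-5 and MHH-CALL4 under JQ1, with all 3 pairs over 0.1, which met the rule set for pairing. Arrays 1 and 2 correlated as highly across numbers (0.22 and 0.21) as within them (0.23 and 0.20), so replicate 3 (0.47) alone stood out, and the labels state no pairing.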

Additional observations from a re-analysis of the deposited data

How the results depend on the processing

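No called value of a member changed sign in any alternative run, and the difference of the JQ1 effects called 0 of 26 members in every alternative run. In MHH-CALL4 the fatty acid median was -0.60 with the filter on low values, which leaves out ELOVL6, and -0.57 with ACLY, ACSS2 and AACS counted in. In MUTZ-5 the count of members higher was 5 with extended summaries and with median centring, and 6 with cyclic loess and with the filter on low values. The counts of all genes higher were then 1214, 1761, 1659 and 1316, the last with fewer genes tested, against 1290 in the main fit. Sterol genes higher were 2 under these 4 settings, and sterol genes lower 4 with cyclic loess, the filter and the trended robust fit. All genes lower were 2080, 1729 and 1943 under these last settings, against 1848. With the replicate block 3 members and 1 sterol gene were higher in MHH-CALL4, where LSS (adjusted p = 0.0529), SC5D (0.0533), EBP (0.0601) and ACLY (0.0738) lost their calls. Over all genes of MHH-CALL4 the block called 1227 higher and 2188 lower, against 1563 and 2494. The same-numbered arrays of MHH-CALL4 under JQ1 and DMSO correlated at 0.07 to 0.30, against -0.30 to 0.10 across numbers, with 2 of 3 pairs over 0.1. Those of MUTZ-5 correlated at -0.44 to -0.17. Pairing by number within MHH-CALL4 thus remains possible, though the labels state none. The block gave 86 genes higher and 50 lower for the difference of the JQ1 effects, against 135 and 83. It called the same members of MUTZ-5 and of both line comparisons. ACSS2 was called higher in MUTZ-5 under JQ1 in fits of the JQ1 arrays alone, with the block (adjusted p = 0.0271, chosen after seeing the data) and without it (0.03), and also with cyclic loess (0.0326) and the filter (0.0429). The filter gave 37 genes lower for the difference of the effects, and 1061 genes higher in MUTZ-5 under DMSO, with fewer genes tested. Leaving out 1 array gave 3 to 6 members and 1 to 2 sterol genes higher in MUTZ-5, with 2 to 3 sterol genes lower and 5 to 6 fatty acid genes lower. There it gave 900 to 1673 genes higher and 1382 to 1930 lower over all. In MHH-CALL4 it gave 2 to 4 members and 1 to 2 sterol genes higher, and 1007 to 1259 genes higher over all. For the difference of the effects it gave 102 to 262 genes higher, the most without MUTZ-5 DMSO replicate 3, and 55 to 98 lower. Under DMSO 1 to 2 members were lower in MUTZ-5, and 1233 to 2040 genes over all. Apart from the named calls the causes of these changes were not tested. The number of arrays and the unknown background limit small and low values, ELOVL6 under JQ1 among them.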
